A study of Mus musculus with 11 samples.

Results

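The Wnt pathway genes described here are 56 of the 23286 gene rows measured in cultured mouse embryonic palatal mesenchyme cells (MEPMs), chosen by gene symbol and not by any measured value. They comprise all rows whose RefSeq accessions map to a Wnt, Frizzled, Sfrp, Dkk, Rspo, Nkd or Ror gene, or to Lrp5, Lrp6, Axin1, Axin2, Lef1, Tcf7, Tcf7l1, Tcf7l2, Frzb, Wif1 or Ctnnb1. By role they were 19 ligands, 12 receptors, 2 co-receptors, 14 secreted modulators and 9 intracellular genes. MEPMs are primary cultures of the connective-tissue precursors that fill the palatal shelves, here from mouse embryos at E13.5. The 3 groups were FGF1 at 50 ng/mL together with heparin at 1 µg/mL (3 libraries), PDGFA at 30 ng/mL (4 libraries), each for 1 h, and serum-starved cells without ligand (4 libraries). Cells of all 3 groups had been grown in 10% serum and held overnight in 0.1% serum, so the stimulated cells were starved too, and no strain, genotype or sex was given. No group received heparin alone, so FGF1 and heparin cannot be told apart, and the ligand doses differed.

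Wnt ligands are secreted lipid-modified glycoproteins. They bind Frizzled receptors, which act with the co-receptors Lrp5 and Lrp6 to stabilise beta-catenin, or with receptors such as Ror2 to steer cell shape and movement. Secreted Sfrp and Dkk proteins restrain the signal at the ligand or the co-receptor, while R-spondins strengthen it by keeping Frizzled receptors at the cell surface. Inside the cell Axin proteins hold the complex that marks beta-catenin for destruction, and stabilised beta-catenin acts on DNA through Tcf and Lef factors. In the palate, Wnt signalling is known for its part in shelf growth, and loss of the ligand Wnt5a or the R-spondin Rspo2 causes cleft palate in mice.

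Levels are given in FPKM, read fragments scaled to transcript length and sequencing depth, so different genes can be set side by side. For each gene the authors' table holds a single FPKM per group with bounds on either side, printed here in square brackets and called its bracket. It gives no value per library, so no SD and no test between replicates could be had, and the calls and z values below rest on the deposited bounds alone. Nothing states that libraries of a group came from separate litters or cultures. Both ligand comparisons use the same starved cells. A gene was called different when the brackets of the compared groups lay wholly apart. Of all rows, 11702 reached 1 FPKM in a group and were compared, and 35 of the 56 Wnt pathway genes were among them. Sequencing depth was unknown. The brackets were widest after PDGFA. Over the 35 genes their median half-width was 33.7% of the FPKM with FGF1, 50.3% with PDGFA and 24.3% in starved cells, against 34.7%, 49.6% and 25.6% over all compared rows. Of 10 palatal mesenchyme markers 9 reached 1 FPKM, led by Vim and Col1a2, and the estimate of Col1a1 had failed. Pdgfra, the gene of the PDGFA receptor, had 2.46 FPKM [1.58 to 3.34] with FGF1, 3.52 [1.70 to 5.34] with PDGFA and 3.87 [2.95 to 4.79] in starved cells. Of 7 epithelial markers only Krt18 reached 1 FPKM, of 5 endothelial markers Tek and Kdr did, and of 3 immune markers none. Tubb3, a tubulin gene typical of neurons, had 44.8 FPKM with FGF1, 49.8 with PDGFA and 37.0 in starved cells. Elavl3, another neuronal marker, had 0.0024 FPKM with FGF1, 0.0092 with PDGFA and 0.0023 in starved cells. Whether neurons were present, and their part in the results, was not tested. Epithelial Krt5 and Krt14 and endothelial Pecam1, Cdh5 and Tie1 were at or under 0.1 FPKM in every group. In a bulk culture fewer cells of a type and less RNA per cell cannot be told apart.

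None of the 35 Wnt pathway genes was called in any comparison. With FGF1 against starved cells 0 of 35 were called, where 0.555% of all compared rows were (0.538% higher and 0.0171% lower). With PDGFA against starved cells the count was 0 of 35 against 0.308%, all of them higher. With FGF1 against PDGFA it was 0 of 35 against 0.12% (0.0256% higher and 0.094% lower). At such background shares, 0 of 35 does not set the Wnt pathway genes apart from the rest. A z value computed from the bracket widths, at an unadjusted p under 0.05, called 0 of 35 in each comparison as well, where it called 1.13%, 1.06% and 0.761% of all rows.

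Promoters of 4 genes on which the account below turns are printed here from RefSeq (build GRCm38.p6), each 300 bases long from 250 before to 50 after the annotated start, in the direction of transcription. Sfrp2 had the largest difference between the ligands, and Wnt9a and Wnt3a are neighbours with opposite levels. Fzd4 and Wnt3a carry the motif GCGGGGGCG of the EGR factors, which growth factors induce in many cell types. Capitals mark that motif on either strand, and lower case the rest. The windows are chr3:83766071-83766370 (plus strand) for Sfrp2, chr7:89404116-89404415 (plus) for Fzd4, chr11:59306680-59306979 (plus) for Wnt9a and chr11:59290702-59291001 (minus) for Wnt3a.
Sfrp2: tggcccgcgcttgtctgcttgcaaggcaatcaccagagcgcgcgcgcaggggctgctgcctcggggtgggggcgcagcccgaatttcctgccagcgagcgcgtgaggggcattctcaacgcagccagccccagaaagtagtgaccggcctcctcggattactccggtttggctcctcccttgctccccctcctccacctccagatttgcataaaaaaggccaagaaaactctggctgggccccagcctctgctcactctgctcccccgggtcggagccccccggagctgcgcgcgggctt
Fzd4: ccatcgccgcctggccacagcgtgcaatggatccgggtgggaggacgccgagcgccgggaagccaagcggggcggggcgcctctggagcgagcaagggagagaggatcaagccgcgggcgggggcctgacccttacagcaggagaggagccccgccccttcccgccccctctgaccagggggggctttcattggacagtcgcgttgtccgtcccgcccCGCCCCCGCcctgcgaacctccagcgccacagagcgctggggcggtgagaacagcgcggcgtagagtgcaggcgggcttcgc
Wnt9a: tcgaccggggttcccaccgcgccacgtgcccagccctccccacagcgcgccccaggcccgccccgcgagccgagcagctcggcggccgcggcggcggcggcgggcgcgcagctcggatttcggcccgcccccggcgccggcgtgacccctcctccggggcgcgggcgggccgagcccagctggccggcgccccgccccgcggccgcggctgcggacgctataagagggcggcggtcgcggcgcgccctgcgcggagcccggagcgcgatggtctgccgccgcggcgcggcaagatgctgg
Wnt3a: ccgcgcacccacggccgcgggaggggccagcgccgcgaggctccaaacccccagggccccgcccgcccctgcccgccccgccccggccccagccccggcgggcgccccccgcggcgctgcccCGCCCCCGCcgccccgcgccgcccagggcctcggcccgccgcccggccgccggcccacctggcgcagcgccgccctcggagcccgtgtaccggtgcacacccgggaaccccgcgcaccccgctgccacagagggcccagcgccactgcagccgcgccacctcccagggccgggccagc

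The table of promoters held 39 of the 56 genes. The EGR motif GCGGGGGCG was found on either strand in 7 of these 39 (17.9%), against 3.31% of 27025 genes with a listed promoter. They were Fzd4, Tcf7l2 and Wnt2, which reached 1 FPKM, and Wnt3a, Wnt7a, Wif1 and Tcf7, which did not. The motif consists of G and C only, and promoters of Wnt pathway genes are rich in CpG dinucleotides. Their median CpG count was 28 for measured genes and 31 for those under 1 FPKM, against 8 over all genes. The share over all genes is not matched for base composition, and whether the excess goes beyond composition was not tested. In Fzd4 the match began at position −32 relative to the start, and in Wnt3a at −128. Levels of the 3 measured carriers lay close together across groups. Fzd4 had 2.85 FPKM with FGF1, 2.69 with PDGFA and 3.32 in starved cells. Tcf7l2 had 8.31 FPKM with FGF1, 8.84 with PDGFA and 8.93 in starved cells, and Wnt2 had 3.81 FPKM with FGF1, 3.83 with PDGFA and 4.37 in starved cells. The TCF and LEF core CTTTGA was present in 7 of 39 (17.9%), among them Fzd1 and Wnt11, against 18.2% of all genes. The AP-1 motif TGANTCA was present in 2 of 39, Ror2 and Wnt5b (5.13% against 8.97%), the CRE TGACGTCA in 0 (against 2.03%), and the CArG box of the serum response factor in 2, Lef1 and Tcf7 (5.13% against 1.81%). Both strands were searched, and no motif matches overlapped in the printed windows. A match describes the letters only and is not evidence of binding.

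Among the ligands Wnt5a led, at chr14:28505473-28525515 (mm10). It acts largely through Ror receptors and cell polarity, and it had 103 FPKM [68.7 to 137] with FGF1, 93.7 [47.0 to 141] with PDGFA and 99.3 [76.7 to 122] in starved cells. Wnt9a, known from joints and craniofacial cartilage, followed with 36.1 FPKM [24.9 to 47.2] with FGF1, 32.3 [18.0 to 46.5] with PDGFA and 32.4 [25.0 to 39.7] in starved cells. Wnt16, best known for its role in cortical bone, had 33.7 FPKM [21.6 to 45.7] with FGF1, 33.4 [17.9 to 49.0] with PDGFA and 31.7 [22.7 to 39.5] in starved cells. In starved cells the bracket of Wnt5a lay above that of Wnt9a, those of Wnt9a and Wnt16 overlapped, and both lay above that of Wnt2. Together these 3 genes made up 92.5% of the summed FPKM of the 19 ligands in starved cells, and Wnt5a alone 56.2%. After stimulation the share of the 3 was 93.0% with FGF1 and 91.1% with PDGFA.

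The other 5 ligands that reached 1 FPKM were low, and in starved cells their brackets formed an overlapping run. Wnt2 had 3.81 FPKM [2.30 to 5.29] with FGF1, 3.83 [1.73 to 5.94] with PDGFA and 4.37 [2.97 to 5.76] in starved cells. Wnt10b stood at 2.25 FPKM with FGF1, 2.30 with PDGFA and 2.02 in starved cells. Wnt10a had 1.98 FPKM [1.11 to 2.85] with FGF1, 2.58 [1.05 to 4.12] with PDGFA and 1.80 [1.09 to 2.51] in starved cells. All 3 of these had overlapping brackets across the groups. Wnt11, which like Wnt5a is associated with cell movement, had 0.926 FPKM [0.505 to 1.34] with FGF1, 1.48 [0.519 to 2.45] with PDGFA and 1.04 [0.628 to 1.45] in starved cells. Wnt5b had 2.15 FPKM [0.346 to 3.94] with FGF1, 3.01 [0 to 6.85] with PDGFA and 2.24 [0.933 to 3.55] in starved cells. The lower bound of Wnt5b was 0 with PDGFA, and its locus overlaps that of Fbxl14.

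The remaining 11 ligands stayed under 1 FPKM in every group. Wnt7b, Wnt2b, Wnt4 and Wnt7a were between 0.260 and 0.711 FPKM. Wnt1 and Wnt3a, classical activators of beta-catenin, were near 0. Wnt1 had 0.0229 FPKM with FGF1, 0 with PDGFA and 0.0160 in starved cells, and Wnt3a had 0.0139, 0.0166 and 0.00370. Wnt3, Wnt8a, Wnt8b and Wnt9b were at or under 0.0443 FPKM, and Wnt6 reached 0.130 with PDGFA.

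Several ligand genes lie in adjacent pairs left by ancient duplication, and the members of a pair could differ widely. Wnt3a and Wnt9a are separated by 16.2 kb on chromosome 11 with no other row of the table between them (chr11:59248042-59333552). In starved cells Wnt9a had 32.4 FPKM [25.0 to 39.7] and Wnt3a 0.00370 [0 to 0.0415]. Wnt10b and Wnt1, 11.7 kb apart on chromosome 15, had 2.02 FPKM [1.27 to 2.77] and 0.0160 [0 to 0.0161]. Wnt10a and Wnt6, 6.70 kb apart on chromosome 1, had 1.80 [1.09 to 2.51] and 0.0639 [0 to 0.147]. In the fourth pair, Wnt3 and Wnt9b on chromosome 11 with 24.4 kb between them, both genes were near 0. In 3 of the 4 pairs the brackets of the neighbours lay apart, and in each of those a ligand near 0 sat beside a measured one.

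**Figure D1:**
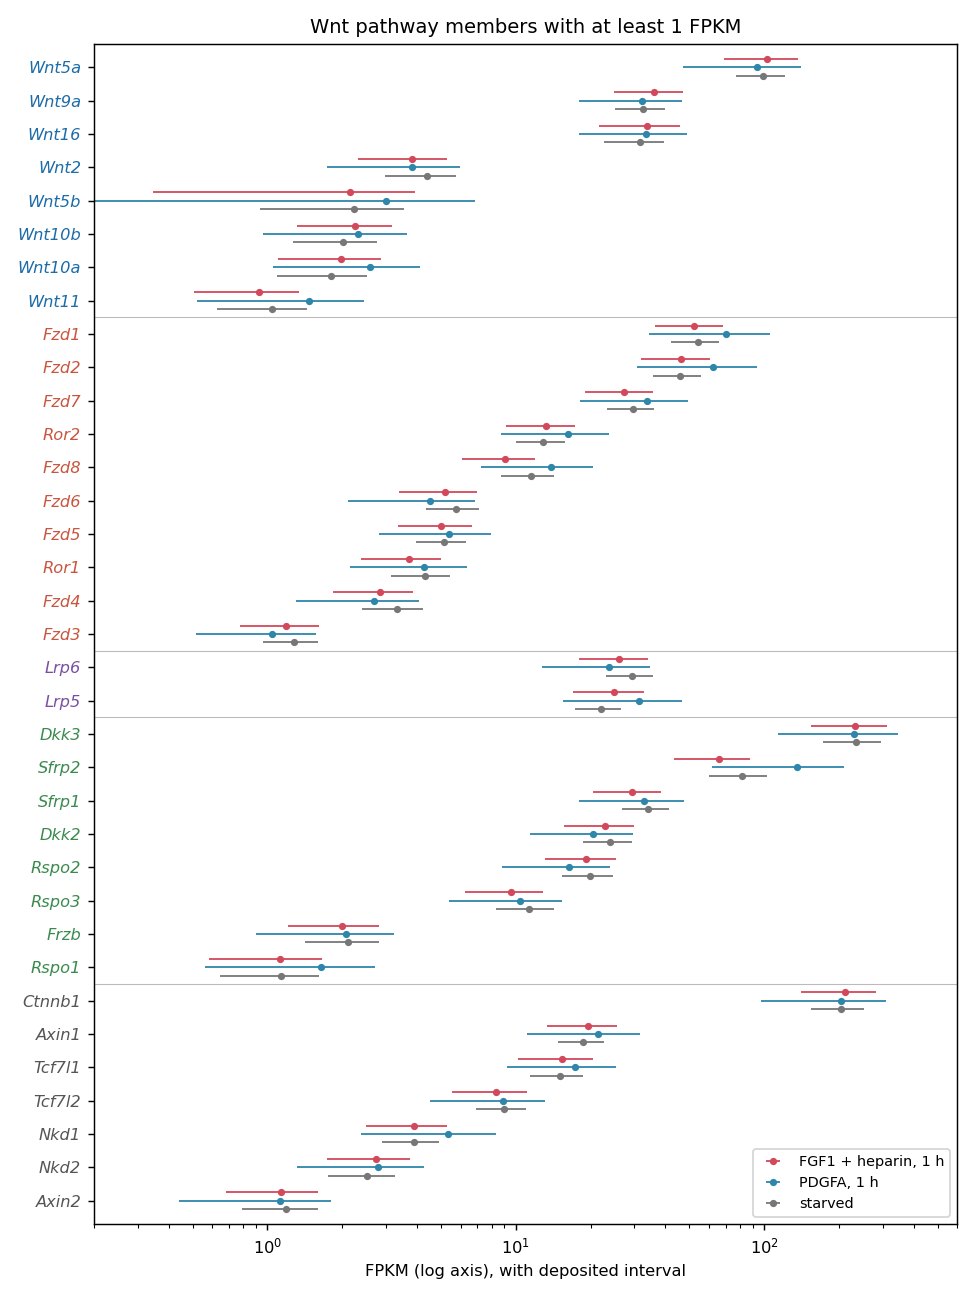
FPKM on a log axis for the 35 Wnt pathway genes with at least 1 FPKM in a group, for FGF1 with heparin (red), PDGFA (blue) and starved cells (grey), with the deposited interval as the bar. Blocks from top to bottom are ligands, receptors, co-receptors, secreted modulators and intracellular genes, each ordered by the starved level. The 3 bars of every gene overlap, and Sfrp2 has the widest gap between its FGF1 and PDGFA points; the PDGFA bar of Wnt5b reaches 0, beyond the left edge.

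Of the 12 receptors 10 reached 1 FPKM. Fzd1, Fzd2 and Fzd7, closely related Frizzleds whose coding regions lie in a single exon, held 74.0% of the summed receptor FPKM in starved cells. Fzd1 had 52.4 FPKM [36.4 to 68.4] with FGF1, 69.9 [34.5 to 105] with PDGFA and 54.1 [42.1 to 66.1] in starved cells. Fzd2 had 46.3 FPKM [31.9 to 60.7] with FGF1, 62.3 [30.8 to 93.7] with PDGFA and 45.9 [35.6 to 55.7] in starved cells. Fzd7 had 27.4 FPKM [19.1 to 35.7] with FGF1, 33.6 [18.1 to 49.2] with PDGFA and 29.7 [23.3 to 36.0] in starved cells. In starved cells the brackets of Fzd1 and Fzd2 overlapped, as did those of Fzd2 and Fzd7. The Wnt5a receptor Ror2 came next, with 13.2 FPKM [9.11 to 17.4] with FGF1, 16.2 [8.73 to 23.7] with PDGFA and 12.9 [9.98 to 15.8] in starved cells, in a bracket below that of Fzd7.

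Fzd8, a receptor of beta-catenin signalling, had 9.02 FPKM [6.07 to 12.0] with FGF1, 13.9 [7.22 to 20.5] with PDGFA and 11.5 [8.75 to 14.3] in starved cells. Fzd4, which in the retina also binds the non-Wnt ligand Norrin, had 2.85 FPKM [1.83 to 3.86] with FGF1, 2.69 [1.30 to 4.07] with PDGFA and 3.32 [2.41 to 4.23] in starved cells. The other measured receptors were Fzd6, Fzd5, Ror1 and Fzd3, with starved levels of 5.73, 5.13, 4.29 and 1.28 FPKM. Fzd10 and Fzd9 stayed under 1 FPKM, at 0.961 and 0.329 in starved cells. Fzd1, Fzd2, Fzd7 and Fzd8 were the only 4 of the 35 genes whose matched transcripts have a single exon. Each had its highest value with PDGFA, with overlapping brackets.

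The co-receptors were expressed at similar levels. Lrp6 had 26.0 FPKM [18.0 to 34.1] with FGF1, 23.7 [12.8 to 34.6] with PDGFA and 29.4 [23.0 to 35.7] in starved cells, and Lrp5 had 24.9 FPKM [17.0 to 32.7] with FGF1, 31.2 [15.5 to 46.9] with PDGFA and 21.9 [17.3 to 26.6] in starved cells. Their brackets overlapped within each group. Lrp6 had its highest value in starved cells and Lrp5 with PDGFA.

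The secreted modulators were led by Dkk3, Sfrp2 and Sfrp1. Dkk3, a divergent Dickkopf whose action on Wnt signalling is debated, had 233 FPKM [154 to 311] with FGF1, 229.6 [114 to 345] with PDGFA and 234 [173 to 296] in starved cells. It had the highest value of the 35 genes in starved cells, with a bracket that overlapped that of Ctnnb1. Sfrp2, which binds Wnt ligands outside the cell, had 65.9 FPKM [43.4 to 87.8] with FGF1, 136 [61.7 to 209.7] with PDGFA and 81.5 [60.2 to 102] in starved cells. Its FGF1 and PDGFA brackets overlapped only between 61.7 and 87.8 FPKM, and its starved bracket overlapped both. Sfrp1, a relative of Sfrp2, had 29.5 FPKM [20.4 to 38.5] with FGF1, 32.8 [17.9 to 47.7] with PDGFA and 34.2 [26.7 to 41.5] in starved cells. In starved cells these 3 genes held 85.6% of the summed FPKM of the 14 secreted modulators.

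Dkk2, which binds Lrp5 and Lrp6, had 22.9 FPKM with FGF1, 20.5 with PDGFA and 24.0 in starved cells. Of the R-spondins, Rspo2 had 19.2 FPKM with FGF1, 16.4 with PDGFA and 20.0 in starved cells. Rspo3 had 9.52 FPKM [6.22 to 12.8] with FGF1, 10.4 [5.40 to 15.3] with PDGFA and 11.3 [8.35 to 14.3] in starved cells. Frzb was low, at 2.12 FPKM in starved cells, and Rspo1 was close to the limit of 1 FPKM, at 1.14. Dkk1, the classical Lrp6 antagonist, had at most 0.0291 FPKM, Wif1, Sfrp4, Sfrp5 and Rspo4 stayed under 1, and Dkk4 was listed at 0 in every group.

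Inside the cell Ctnnb1, the gene of beta-catenin, had the highest value, with 211 FPKM [140.4 to 282] with FGF1, 204 [97.3 to 309.8] with PDGFA and 203 [154 to 253] in starved cells. Of its 31-base words 19.4% occurred in transcripts of other genes, most often in those of Ulk4. Axin1, the scaffold of the destruction complex, had 19.5 FPKM [13.4 to 25.6] with FGF1, 21.4 [11.1 to 31.7] with PDGFA and 18.7 [14.8 to 22.7] in starved cells. Tcf7l1, a Tcf factor known mainly as a repressor, had 15.4 FPKM [10.2 to 20.5] with FGF1, 17.2 [9.19 to 25.3] with PDGFA and 15.1 [11.4 to 18.7] in starved cells, and its locus overlaps the row of Gm15401. Tcf7l2 stood at 8.93 FPKM in starved cells, while Lef1 and Tcf7 had 0.0939 and 0.632 FPKM there. Genes known as feedback targets of beta-catenin were low. Axin2 had 1.13 FPKM [0.680 to 1.59] with FGF1, 1.12 [0.438 to 1.80] with PDGFA and 1.19 [0.787 to 1.59] in starved cells, a level at which its brackets reached from under to above 1 FPKM in all groups. Nkd1, which restrains Dishevelled, had 3.89 FPKM [2.49 to 5.29] with FGF1, 5.35 [2.38 to 8.32] with PDGFA and 3.91 [2.90 to 4.91] in starved cells, and its relative Nkd2 had 2.74 FPKM with FGF1, 2.79 with PDGFA and 2.51 in starved cells.

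With FGF1 the pathway lay close to its starved level. Ratios of FGF1 to starved FPKM could be formed for the 34 genes with at least 1 FPKM in both groups, and they ran from 0.783 to 1.14. The lowest was that of Fzd8, at 0.783 (0.522 to 1.18). The range in parentheses was computed from the deposited brackets taken as 95% bounds, a level the authors' file does not state. On that reading the range lay between 0.5 and 2 for 33 of 34 genes, all but Wnt5b, and it held 1 for all 34. Wnt5a had a ratio of 1.04 (0.693 to 1.55), Ctnnb1 1.04 (0.687 to 1.57) and Dkk3 0.993 (0.647 to 1.52). A 2-fold difference in either direction thus lay outside the range of those 33 genes.

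On the log2 scale, with 0.5 FPKM added to both groups, the largest departures with FGF1 were Fzd8 (−0.34), Sfrp2 (−0.30), Rspo3 (−0.24), Sfrp1 (−0.21) and Fzd4 (−0.19). All 5 had lower values than in starved cells, with overlapping brackets. Of the 35 genes 12 had a higher and 23 a lower value with FGF1 than in starved cells, and their median log2 fold was −0.05, where all compared rows had a median of 0.02 with 6548 higher and 5072 lower. The 8 measured secreted modulators all had the lower value with FGF1, with log2 folds from −0.30 to −0.01. Of 8 ligands 5 were higher and 3 lower, of 10 receptors 2 and 8, and of 7 intracellular genes 4 and 3. No single gene among them passed the bracket rule.

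With PDGFA the points scattered more widely, as did the brackets. Ratios of PDGFA to starved FPKM ran from 0.784 to 1.67 over 34 genes. The range of the ratio stayed between 0.5 and 2 for 15 of the 34 genes and held 1 for all. The largest value was that of Sfrp2, at 1.67 (0.911 to 3.05). Lrp5 followed on the log2 scale with 0.50, a ratio of 1.42 (0.824 to 2.46). Fzd2 had 1.36 (0.784 to 2.35), Wnt10a 1.44 (0.704 to 2.93) and Nkd1 1.37 (0.743 to 2.53). Among the lower values, Fzd6 had 0.784 (0.439 to 1.40) and Lrp6 0.807 (0.485 to 1.34). Of the 35 genes 19 had a higher and 16 a lower value than in starved cells. Their median log2 fold was 0.06 against −0.0029 over all compared rows.

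**Figure D2:**
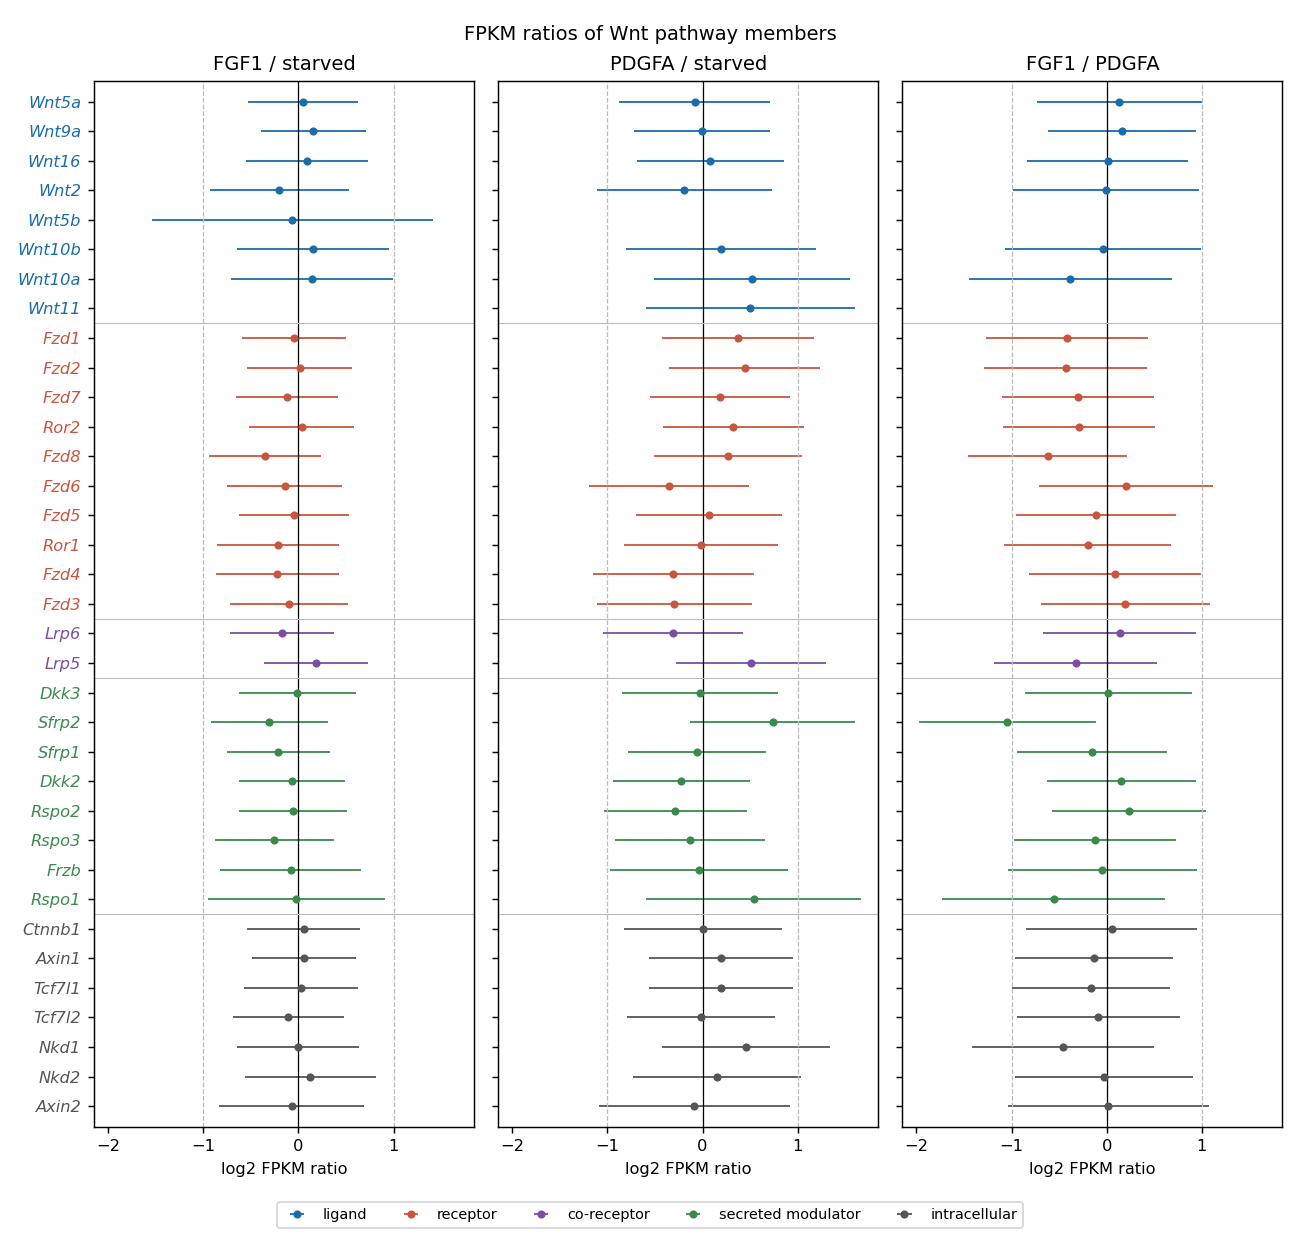
Log2 FPKM ratios of the 35 genes for FGF1 over starved, PDGFA over starved and FGF1 over PDGFA, with ranges computed from the deposited brackets taken as 95% bounds; colours give the role and dashed lines mark 2-fold. Genes under 1 FPKM or with a bound of 0 in a compared group have no point. FGF1 ratios sit in a narrow band around 0, PDGFA ratios have longer bars, and the range of Sfrp2 in the right panel ends below 0.

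The PDGFA values of the Wnt pathway genes went with the base composition of their transcripts. Across the 35 genes the Spearman correlation of the log2 fold with transcript GC content was 0.80 for PDGFA against starved cells, against 0.61 across 11510 compared rows of at least 200 nt. The 35 points come from the same pair of group estimates, so the value describes those estimates only. The same correlation was 0.56 for FGF1 against starved cells, against 0.18 over all rows, and −0.58 for FGF1 against PDGFA, against −0.60. The genes with high PDGFA values were GC-rich: Wnt10a has 63.8% GC, Lrp5 58.6% and Fzd2 56.6%. Fzd6 and Lrp6, with low values, have 46.7% and 46.0%, and Sfrp2 has 52.9%, the median of the 35 genes. Over all compared rows the median GC content was 50.4%.

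After a smooth trend on GC content, transcript length and level was fitted to all rows and removed, the PDGFA log2 fold was 0.26 for Lrp5 in place of 0.50. It was 0.24 for Fzd2 in place of 0.44, and 0.14 for Wnt10a in place of 0.42. Sfrp2 and Nkd1 moved least of the 5 largest, to 0.61 for Sfrp2 in place of 0.73 and to 0.34 for Nkd1 in place of 0.41. The PDGFA median over the 35 genes was then 0.03. For FGF1 against starved cells the log2 fold with the trend removed was −0.41 for Sfrp2, −0.31 for Fzd8 and −0.25 for Sfrp1. It was −0.23 for Rspo3 and −0.10 for Fzd4. Fzd7 (−0.16), Nkd2 (0.16) and Wnt2 (−0.15) were then among the genes further from 0 than Fzd4. Skeletal muscle markers were also higher in the PDGFA cells. The FPKM of 6 such markers summed to 29.6 with FGF1, 108 with PDGFA and 22.7 in starved cells. Acta1 and Actc1 were called higher with PDGFA than in starved cells. Of the 6 markers 5 reached 1 FPKM, but Myog and Tnni1 did so only with PDGFA. Myod1 had 0.0439 FPKM with FGF1, 0.258 with PDGFA and 0.0712 in starved cells. Acta1 made up most of each sum, with 24.6 FPKM with FGF1, 87.5 with PDGFA and 17.2 in starved cells. For Myod1, Myog, Tnni1 and Mylpf the PDGFA and starved brackets overlapped. The part of skeletal muscle markers in the PDGFA values of Wnt pathway genes was not tested.

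**Figure D3:**
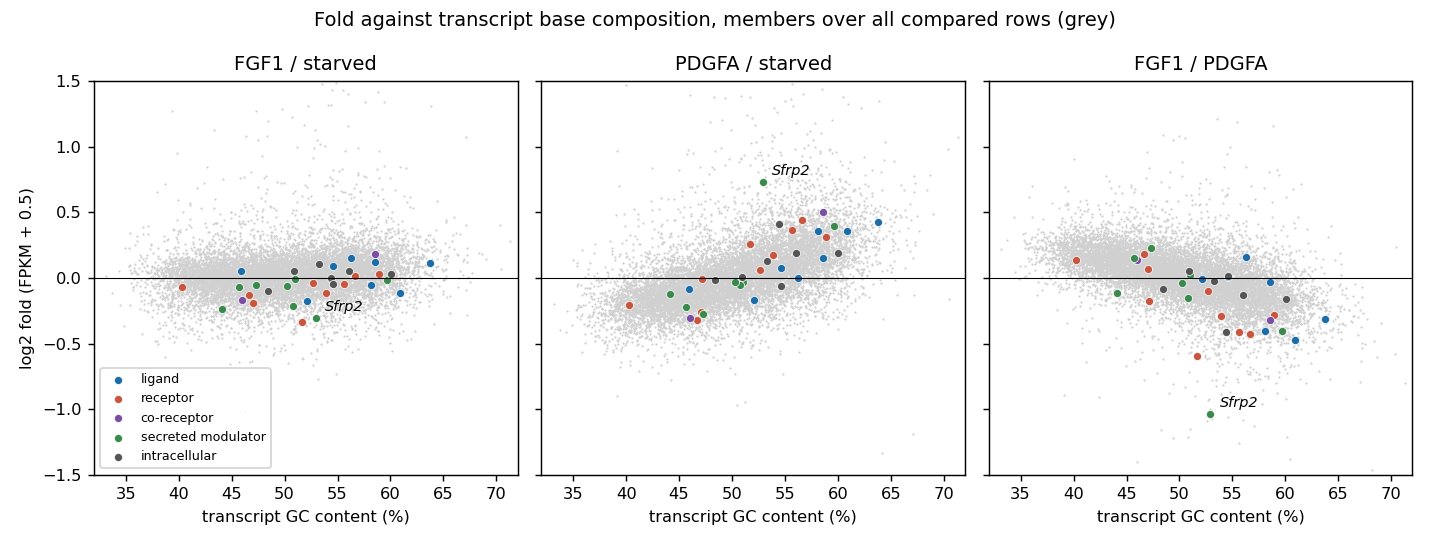
Log2 fold (FPKM + 0.5) against transcript GC content in percent for the 3 comparisons, with the 35 Wnt pathway genes coloured by role over all compared rows of at least 200 nt in grey; grey rows outside the axis range are not drawn. The coloured points rise with GC content in the PDGFA panel and fall in the FGF1 over PDGFA panel, and Sfrp2 lies away from the cloud of other coloured points in both.

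Set directly against PDGFA, FGF1 gave the lower value for 23 of the 35 genes and the higher value for 12. The median log2 fold was −0.10, against 0.01 over all compared rows, and −0.02 with the trend removed. Sfrp2 had the largest difference, 65.9 FPKM with FGF1 and 136 with PDGFA. Its ratio was 0.486 (0.256 to 0.922), the only one of 33 ranges that did not hold 1, but the deposited brackets overlapped and the z value of the difference was −1.77, so it was not called. Removing the trend left its log2 fold at −1.04. Of the 31-base words of Sfrp2, 14.7% occur in transcripts of other genes, most often Gm26771.

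Fzd8 had the next largest difference, with a ratio of 0.651 (0.364 to 1.16). It was below the starved value with FGF1 and above it with PDGFA, with overlapping brackets throughout. Wnt11 had a log2 fold of −0.47, Fzd2 −0.43 and Nkd1 −0.41. With the trend removed the log2 fold was −0.25 for Wnt11, −0.32 for Fzd2 and −0.32 for Nkd1. Of the 10 measured receptors 7 were lower with FGF1 than with PDGFA, with a median log2 fold of −0.23, or −0.16 with the trend removed. The summed FPKM of the 12 receptors was 167 with FGF1, 215 with PDGFA and 175 in starved cells, and that of the 19 ligands was 186, 175 and 177. Ranges of the ratio stayed between 0.5 and 2 for 16 of 33 genes, and for the others, Fzd1, Fzd2 and Fzd8 among them, a 2-fold difference lay within the range.

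Further genes of the pathway were read from 6 lists by function. By the bracket rule none of their genes was called in any comparison apart from Myc. The z rule called Myc and Ccn1 with FGF1 against starved cells and no other compared gene of the lists. For Wnt secretion and extracellular processing 7 of 9 listed genes were compared and 0 called. Wls, the carrier that takes Wnt proteins to the cell surface, was abundant, with 287 FPKM [189.7 to 385] with FGF1, 233 [107 to 358] with PDGFA and 284 [214 to 353] in starved cells. For receptor turnover and other receptors 11 of 15 were compared and 0 called. Ptk7, a co-receptor of cell polarity, had 119 FPKM with FGF1, 142 with PDGFA and 118 in starved cells. Adgra2, a Wnt7 co-receptor in brain vessels, had the largest PDGFA log2 fold of that list, 0.47. Lgr4, through which R-spondins act, had 11.8 FPKM with FGF1, 11.3 with PDGFA and 12.7 in starved cells.

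For Dishevelled and the destruction complex 18 of 20 were compared and 0 called. The kinase gene Csnk1e had 38.8 FPKM [26.5 to 50.8] with FGF1, 40.4 [22.0 to 58.8] with PDGFA and 30.4 [23.1 to 37.6] in starved cells, the largest FGF1 log2 fold of that list (0.35). Dvl1, a Dishevelled gene, had 28.5 FPKM with FGF1, 33.0 with PDGFA and 24.5 in starved cells. Of 11 nuclear co-factors all were compared and 0 called. The Groucho-related gene Tle5 had 195 FPKM [133 to 258] with FGF1, 289 [122 to 455] with PDGFA and 180.0 [141 to 218] in starved cells. Of 12 planar cell polarity genes 7 were compared and 0 called, and Prickle1 had 6.59 FPKM with FGF1, 8.40 with PDGFA and 8.62 in starved cells. Over these 5 lists the median log2 fold lay between −0.11 and 0.06 with FGF1 against starved cells and between −0.07 and 0.05 with PDGFA, beside 0.02 and −0.0029 over all rows. With the trend removed the FGF1 medians lay between −0.09 and 0.01. The PDGFA medians were then −0.15 for the secretion list and −0.13 for the nuclear co-factors, and −0.04 or nearer 0 for the other 3 lists, beside −0.0047 over all rows.

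The last list held 21 genes reported as beta-catenin targets in other settings, of which 12 were compared. The listed genes Ccnd1, Prickle3 and Tiki2 were not analysed here. With FGF1 against starved cells 1 was called higher, where 0.538% of all rows were called higher, and 0 were called with PDGFA against starved cells or between the ligands. The called gene was Myc, a proliferation factor that growth factors also induce directly. It had 53.4 FPKM [37.0 to 69.9] with FGF1, 41.1 [21.6 to 60.6] with PDGFA and 26.1 [20.5 to 31.8] in starved cells, and the ratio of FGF1 to starved cells was 2.04. Ccn1, a matricellular gene and likewise an early growth factor response gene, had 649 FPKM [409 to 884] with FGF1, 624 [285 to 962] with PDGFA and 326 [235 to 414] in starved cells, with FGF1 and starved brackets that overlapped by a narrow margin. Id2 had 15.6 FPKM [9.28 to 21.9] with FGF1, 29.7 [15.1 to 44.4] with PDGFA and 16.4 [10.8 to 20.6] in starved cells, and Twist1, a mesenchymal factor, had 62.4 FPKM with FGF1, 94.4 with PDGFA and 60.1 in starved cells. Of the better-known beta-catenin targets among the 56 genes, Axin2 and Nkd1 were compared and not called, and Dkk1 was too low to be compared. The median log2 fold of the 12 against starved cells was 0.04 with FGF1 and 0.24 with PDGFA, beside 0.02 and −0.0029 over all compared rows. With the trend removed it was −0.0084 and 0.24, beside −0.0012 and −0.0047 over all compared rows. With PDGFA 8 of the 12 were higher and 4 lower than in starved cells.

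**Figure D4:**
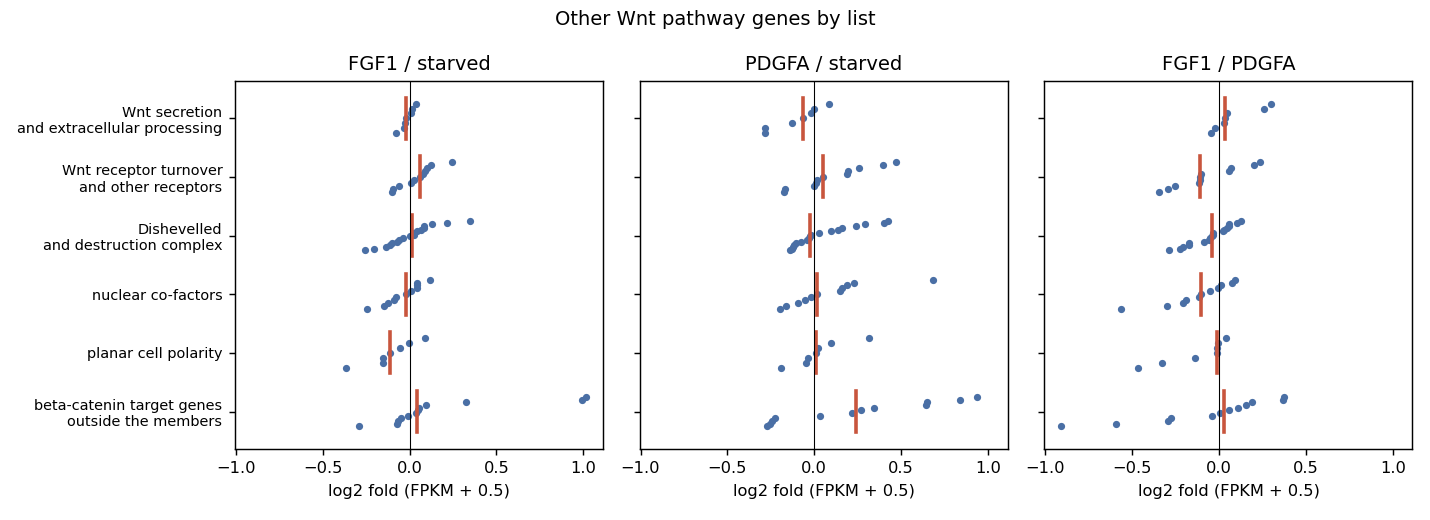
Log2 folds (FPKM + 0.5) of the compared genes of 6 lists of other Wnt pathway genes for the 3 comparisons, each point a gene and each red bar the median of its list. Most points lie near 0; the beta-catenin target list has the widest scatter, with Myc and Ccn1 near 1 in the FGF1 over starved panel.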

How the data were processed

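The deposited table gives FPKM, per the file headers, as 1 value per group with bounds. The submitters' processing notes name CASAVA, TopHat, Cuffdiff and build mm10; versions, settings, annotation, strand handling and the level of the bounds: not given in the sources used here. Depth is unknown. A gene was called where the bounds of 2 groups lay apart and each FPKM lay inside its own; with no values per library, no model could be fitted across genes.

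RefSeq (GRCm38.p6) accessions named 22978 rows, GENCODE M21 named 140 more, and 168 had no name. Rows needed 1 FPKM in a group and no failed estimate (2 rows failed). Log2 folds used FPKM + 0.5, which understates changes of low genes. Ratio ranges and z values took the bounds as 95% bounds (1.96 standard errors), on a log scale for ratios. Transcript length, GC content and 31-base words came from GENCODE M21, with a GC value for 99.4% of compared rows. The trend was a smooth regression over all rows. Calls and trend were run on simulated data with known folds. The noise put in was smaller than the standard error the bounds give when read as 95% bounds. Those runs thus do not show how the call rule behaves at the noise of these data. Of the 35 compared genes 5 share over 3% of their words with other genes (Ctnnb1, Fzd5, Sfrp2, Rspo3, Axin2), and 2 overlap another row. The count for 1 further marker list is not reported here.

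Members, lists and call rule were chosen with earlier results of these data known. By rule, values with bounds were given for the 5 largest log2 folds per comparison and the 3 highest starved levels per role. List genes could be named only if called or among the 3 largest folds of their list in a comparison. Not all genes that met this rule were named, and Sostdc1, Apcdd1, Chd8 and Daam2 were among those left out. Wnt2, Wnt5b, Ror2 and Axin2 were given in full after their values were seen, and the promoters were chosen likewise. Alternatives covered scaling, minimum FPKM, pseudocount, trend and call rule. Tools were matplotlib 3.10.9, statsmodels 0.14.6, scipy 1.17.1, pandas 2.3.3 and numpy 2.4.6 under Python 3.11.15.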

Additional observations from a re-analysis of the deposited data

How the results depend on the processing

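The count of called Wnt pathway genes was 0 in all 3 comparisons under every alternative run: median-of-ratios scaling, quantile normalization, no minimum FPKM, a minimum of 5 FPKM, the trend on GC content, length and level removed, z values at an unadjusted p under 0.05, and a 1.5-fold minimum. The minimum of 5 FPKM and the 1.5-fold minimum can only take calls away, so their counts of 0 were fixed in advance. Median-of-ratios factors lay between 0.994 and 1.007, so that scaling changed the values little. The median log2 fold, recomputed under these scalings, minimums and the trend and with 0.1 or 1 FPKM added, moved by less than 0.1 under each. It ran from −0.07 to −0.02 for FGF1 against starved cells and from −0.12 to −0.02 for FGF1 against PDGFA. For PDGFA against starved cells it ran from −0.03 to 0.07, with a negative sign under quantile normalization (−0.033) and without a minimum (−0.0041), so its sign is not fixed. The median over all compared rows moved too. It was −0.068 under quantile normalization and 0 without a minimum, beside −0.0029 with the settings used above. Starved levels of Wnt5a, Fzd1, Lrp6, Dkk3 and Ctnnb1 stayed within their deposited brackets under quantile normalization. The log2 folds of the 20 genes chosen by rule moved by less than the standard error taken from the bounds in all 300 values recomputed under another scaling, pseudocount or the trend; that of Wnt11 for FGF1 against PDGFA ranged from −0.62 with 0.1 FPKM added to −0.25 with the trend removed, beside −0.47. No paired analysis was possible because the table holds 1 value per group, and for the same reason no replicate could be left out. Wide PDGFA brackets and unknown depth limit what differences could be seen with PDGFA, above all for genes near 1 FPKM. Highly expressed genes had wide PDGFA brackets too, with half-widths of 49.9% for Wnt5a, 50.3% for Dkk3 and 52.2% for Ctnnb1. A 2-fold rise with PDGFA could thus go uncalled for such genes as well.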

Other observations

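Promoters of Wnt pathway genes held many CpG dinucleotides whether or not the gene reached 1 FPKM. Over 300 bases, and with the richest start taken where a gene has several, the 22 measured genes with a listed promoter had a median of 28 CpG (range 6 to 58). The 17 genes under 1 FPKM had a median of 31 (range 6 to 53), and all 27025 genes with a promoter had a median of 8. The ligand gene Wnt3a, near 0 FPKM, had 45 CpG and its measured neighbour Wnt9a 58. This describes the reference sequence, and no methylation was measured.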
